A study of Rattus norvegicus with 4 samples.

Results

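Immediate early genes outside the AP-1 family were examined in CG4 cells, a rat oligodendroglial progenitor line, with and without added Phf8, a histone lysine demethylase. The 10 genes were chosen by name (Egr1, Egr2, Egr3, Nr4a1, Nr4a2, Nr4a3, Arc, Ier2, Klf4 and Klf6), and all 10 were among the 14410 genes of the deposited table. RNA-seq covered 4 libraries, 2 per group. Control cells (ctrl) carried a retrovirus with GFP behind the CAG promoter and an internal ribosome entry site. Phf8oe cells carried the same vector with Phf8 placed ahead of that site. Both groups were wild type cells that had been sorted for GFP, expanded and then held for 3 days in medium that induces differentiation, so both groups carry a viral vector and GFP. Labels number the libraries as biological replicates without saying whether the transductions were separate, and the p-values measure only the spread between these libraries, which may be technical.

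Immediate early genes are switched on within minutes of a stimulus without new protein synthesis, by factors already in the nucleus. Serum response factor (SRF) with its Elk partners, which the ERK kinases phosphorylate, and CREB, which answers to cAMP and calcium, are the best known of these factors. Egr and Klf proteins are zinc finger transcription factors, Nr4a proteins are orphan nuclear receptors, and Arc is an effector protein known from synapses. In oligodendrocyte progenitors such genes respond to growth factors such as PDGF and FGF, which hold the cells in a proliferating state.

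The Egr genes, Arc, Ier2 and the Klf genes were lower in both Phf8oe libraries than in ctrl, and the Nr4a genes showed no such shift. Of the 10 genes, 5 fell (Arc, Egr2, Egr3, Klf6 and Ier2), none rose and 5 did not pass the test, where 4.65% of all 14368 tested genes fell, 2.99% rose and 7.64% changed in either direction. A gene passed when its Benjamini-Hochberg adjusted p over all tested genes in limma was under 0.05. At an unadjusted limma p under 0.05, 7 were lower and 0 higher, where 1952 of all 14368 tested genes were lower and 1826 higher. With a variance that did not follow the expression level, 1667 of all tested genes were lower and 1466 higher by that measure. Both Phf8oe libraries lay below both ctrl libraries for 7 of the 10 genes, against 28.7% of all tested genes. The median log2 fold change of the 10 genes was -1.33, beside 0.00 for all tested genes, of which 1.68% lay at or below that median. Every log2 fold change here is the mean of log2(normalized count + 1) in Phf8oe minus that in ctrl, and folds are taken from it. Whether the 5 calls held depended on keeping both ctrl libraries and on the variance model. The size of the falls moved less: the median log2 fold change of the 10 genes was -1.27 without ctrl replicate 1 and -1.25 without ctrl replicate 2. Without ctrl replicate 1 none of the 10 passed limma (6 had an unadjusted p under 0.05), without ctrl replicate 2 only Klf6 did, and with a variance that did not follow the expression level none did (7 had an unadjusted p under 0.05).

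**Figure D1:**
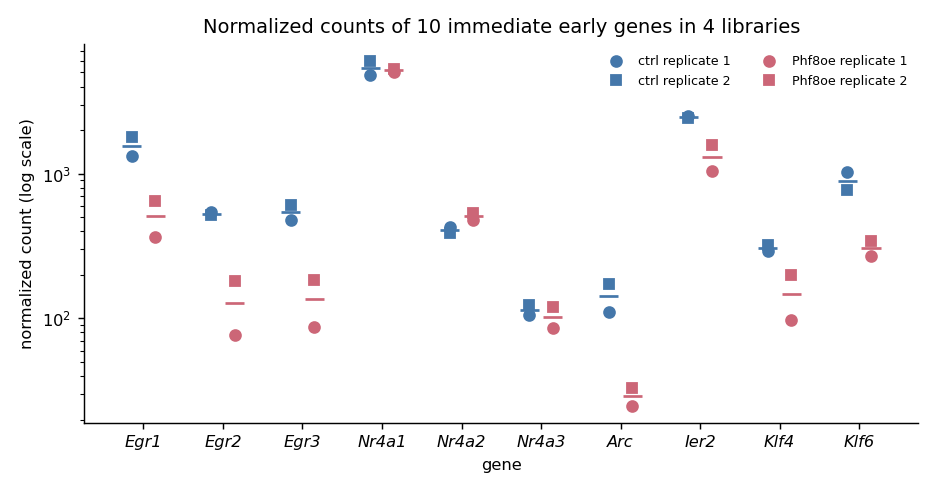
Normalized count (vertical axis, log scale) of each gene in the 4 libraries, with ctrl in blue and Phf8oe in red, circles for replicate 1, squares for replicate 2 and a line at each group mean. The red symbols lie below the blue ones for Egr1, Egr2, Egr3, Arc, Ier2, Klf4 and Klf6, overlap them for Nr4a1 and Nr4a3, and lie above them for Nr4a2.

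Upstream sequence from RefSeq on the GRCr8 assembly was used for 7 of the 10 genes, and that of Egr3, Nr4a3 and Arc was not analysed here. The 250 bases before the start are shown for Egr2, Klf6 and Ier2, which fell and belong to different families, and for Nr4a1, which did not change past the threshold. Capitals mark CArG boxes (the SRF site), CREB sites (TGACGTCA) and their core (TGACG), and Egr sites (GCGNGGGCG), on either strand. CArG boxes were searched as CCWWWWWWGG, where W is A or T. The windows are chr20:21054442-21054691 (minus strand) for Egr2, chr17:69458479-69458728 (minus strand) for Klf6, chr19:40399123-40399372 (plus strand) for Ier2 and chr7:134259888-134260137 (plus strand) for Nr4a1.
Egr2: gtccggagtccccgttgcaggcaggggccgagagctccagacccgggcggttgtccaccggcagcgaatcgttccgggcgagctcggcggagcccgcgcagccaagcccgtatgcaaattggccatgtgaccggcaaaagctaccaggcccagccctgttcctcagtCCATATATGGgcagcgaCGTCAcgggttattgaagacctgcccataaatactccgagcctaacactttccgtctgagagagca
Klf6: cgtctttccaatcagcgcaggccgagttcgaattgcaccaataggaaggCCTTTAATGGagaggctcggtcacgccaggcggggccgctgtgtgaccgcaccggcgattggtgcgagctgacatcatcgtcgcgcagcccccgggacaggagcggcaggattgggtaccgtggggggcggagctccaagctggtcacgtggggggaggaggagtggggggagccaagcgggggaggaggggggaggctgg
Ier2: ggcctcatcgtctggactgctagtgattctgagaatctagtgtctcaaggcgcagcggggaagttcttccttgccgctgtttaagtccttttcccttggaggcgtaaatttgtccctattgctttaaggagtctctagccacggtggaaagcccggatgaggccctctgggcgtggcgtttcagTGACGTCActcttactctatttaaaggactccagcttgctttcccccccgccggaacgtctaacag
Nr4a1: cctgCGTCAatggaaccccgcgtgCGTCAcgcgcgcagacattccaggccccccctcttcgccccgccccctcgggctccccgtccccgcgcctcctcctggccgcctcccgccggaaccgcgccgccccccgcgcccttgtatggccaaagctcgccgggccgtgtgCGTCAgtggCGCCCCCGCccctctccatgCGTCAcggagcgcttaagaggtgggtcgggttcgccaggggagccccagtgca
A CArG box was found for 3 of the 7 genes, Egr1, Egr2 and Klf6, against 1.5% of 27457 windows of the same length. Egr1 held 2 of them. In Egr2 the CArG box began 83 bases before the start and a CREB core 66 bases before it, and in Klf6 the CArG box began 201 bases before it. Ier2 held the full CREB site, 66 bases before the start, which 1.7% of all windows had. Nr4a1 held 4 CREB cores and 1 Egr site, which overlaps a GC box, and no exact CArG box. Its stretch ccttgtatgg differs from the CArG pattern by 1 base, and such near matches were not counted for any gene. Cores, which also lie within every full site, were present for 5 of the 7 genes and 19.0% of all windows, and the Egr site in 4.53% of all windows. The GC box (GGGCGG) was found for 3 of the 7 genes and 32.4% of windows, a TATA match (TATAAA) for Klf4 and 13.1% of windows, and the AP-1 site (TGANTCA) for none of the 7 and 6.36% of windows. Each window was placed by 1 annotated RefSeq start per gene, and whether these cells use that start was not checked. These are letter matches and not measured binding.

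The Egr genes encode factors that bind GC-rich DNA through zinc fingers. Egr1, known as a readout of growth factor signalling through ERK, had normalized counts of 1323 and 1784 in ctrl replicates 1 and 2, and of 364 and 648 in Phf8oe replicates 1 and 2, the order kept below. Both Phf8oe values lay below both ctrl values. The log2 fold change of Egr1 was -1.66 (SE 0.32, 95% interval -2.49 to -0.83, n = 2 per group), and its limma adjusted p of 0.0511 missed the threshold narrowly. It passed in 7 of 14 alternative fits, with adjusted p-values from 1.76e-06 to 0.221.

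Egr2, the factor that drives myelination in Schwann cells, stood at 543 and 517 in ctrl and at 77 and 180 in Phf8oe. The ctrl libraries were close together, and the Phf8oe libraries differed from each other by 2.34-fold while both stayed far below ctrl. Egr2 fell 4.47-fold (log2 fold change -2.16, SE 0.40, limma adjusted p = 0.0368). Egr3, a relative that Egr1 and other early factors can induce, went from 479 and 604 to 87 and 184, and fell 4.22-fold (log2 fold change -2.08, SE 0.36, limma adjusted p = 0.0296). Phf8oe replicate 1 was again the lowest library. The size of both falls depended on which Phf8oe library was used. Without replicate 1 the log2 fold change was -1.55 for Egr2 and -1.54 for Egr3, and without replicate 2 it was -2.77 and -2.61. Neither call held without ctrl replicate 1 (limma adjusted p = 0.282 and 0.214) or without ctrl replicate 2 (0.148 and 0.141).

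Egr4, the remaining gene of the family and not one of the 10, was near the floor of the table, with 19 and 32 in ctrl and 3 and 3 in Phf8oe. It passed the test as lower (limma adjusted p = 0.015), but not without ctrl replicate 1 (0.179) or ctrl replicate 2 (0.16). The values stand for about 53 reads in ctrl and 5 in Phf8oe, a ratio at equal scaling of 0.117 with an exact 95% interval of 0.0364 to 0.289 that covers counting error only. The Nab genes encode corepressors that bind Egr proteins and are themselves induced by them. Nab2 had values of 1484 and 2323 against 1077 and 1345 and did not pass (log2 fold change -0.63, limma adjusted p = 0.171), and Nab1 stood at a log2 fold change of 0.17 (limma adjusted p = 0.339). Both Nab genes were named after their values were seen.

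The Nr4a genes behaved otherwise. They encode nuclear receptors that act without a known physiological ligand, and the activity of these receptors was not measured here. Nr4a1 (Nur77) had normalized counts of 4821 and 5982 in ctrl and 5030 and 5301 in Phf8oe. Both Phf8oe values fell between the ctrl values. Its log2 fold change was -0.06 (SE 0.12, limma adjusted p = 0.804), and the 95% interval from -0.33 to 0.22 does not reach the size of change seen in any of the 5 genes that fell.

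Nr4a2 (Nurr1), known for its role in dopamine neurons, stood at 429 and 387 in ctrl and at 479 and 537 in Phf8oe. Both Phf8oe libraries were higher than both ctrl libraries, a pattern that 28.9% of all tested genes showed, but the difference did not pass (log2 fold change 0.32, SE 0.15, 95% interval -0.03 to 0.66, limma adjusted p = 0.227). Nr4a3 (Nor1) had 106 and 124 in ctrl and 86 and 120 in Phf8oe, and the groups overlapped. Its log2 fold change was -0.17 (SE 0.26, 95% interval -0.75 to 0.41, limma adjusted p = 0.710). Between 85 and 126 reads stood behind each value of Nr4a3, so a modest change in this gene was not detectable. None of the 3 Nr4a genes passed in any of the 14 alternative fits, and the sign for Nr4a1 and Nr4a3 turned when 1 library was left out (up to 0.10 and 0.07).

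**Figure D2:**
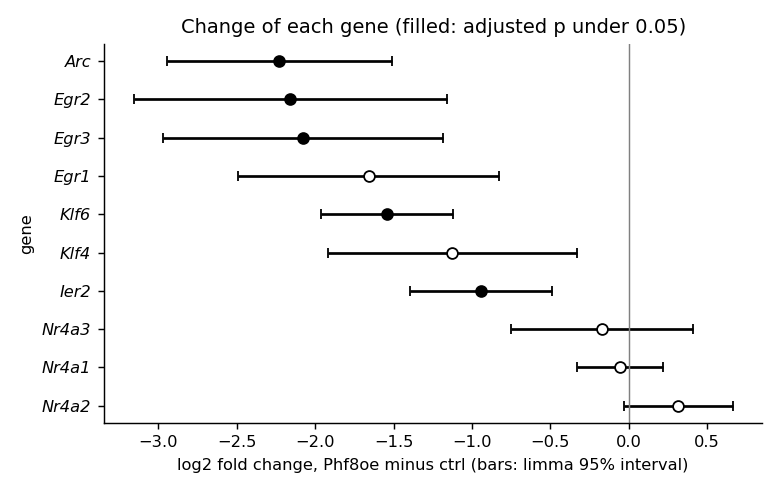
Log2 fold change of each gene (horizontal axis, Phf8oe minus ctrl) with the limma 95% interval as bars; filled points passed an adjusted p under 0.05 and open points did not. The 7 lowest genes have intervals below 0, and those of the 3 Nr4a genes span 0.

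Klf6, a zinc finger factor of the Krüppel-like family that responds to injury and growth factors, had normalized counts of 1023 and 770 in ctrl and 272 and 340 in Phf8oe. It fell 2.91-fold (log2 fold change -1.54, SE 0.19, limma adjusted p = 0.00361), the smallest p of the 10 genes in this fit. The gap between the groups was wide against the spread in either of them. It was the one gene of the 10 called without ctrl replicate 2 (limma adjusted p = 0.029), but it did not pass without ctrl replicate 1 (0.111). Klf4, a relative known as a reprogramming factor, went from 290 and 321 to 97 and 200. Both Phf8oe values were lower, with a 2.06-fold difference between them, and Klf4 did not pass (log2 fold change -1.12, SE 0.33, limma adjusted p = 0.0893). Its log2 fold change was -0.61 without Phf8oe replicate 1 and -1.64 without Phf8oe replicate 2, where it passed (limma adjusted p = 6.73e-05). Of 11 other Klf genes tested, both Phf8oe libraries lay below both ctrl libraries for 5 and above them for 2. Over all tested genes these shares were 28.7% and 28.9%. Klf5, named after its values were seen, went from 758 and 428 in ctrl to 191 and 307 in Phf8oe. It did not pass (log2 fold change -1.23, limma adjusted p = 0.0959). By the test none of the 11 fell and 1 rose. That gene was Klf15, a glucocorticoid-responsive factor, with values of 299 and 245 against 448 and 455 (log2 fold change 0.74, limma adjusted p = 0.0354). The call of Klf15 was lost without ctrl replicate 1 (log2 fold change 0.88) and without ctrl replicate 2 (0.59). It was also lost without robust moderation (limma adjusted p = 0.0517) and with the replicate block (0.0888).

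Arc, whose protein is known for removing glutamate receptors from synapses, showed the largest log2 fold change of the 10 genes as tested, while Egr2 led with a pseudocount of 5 (-2.12 against -2.09), without ctrl replicate 2 and without Phf8oe replicate 2. Arc went from 110 and 174 normalized counts in the controls to 25 and 33 with added Phf8, and it fell 4.69-fold (log2 fold change -2.23, SE 0.32, limma adjusted p = 0.00677). About 130 and 171 reads stood behind the ctrl values and about 26 and 23 behind the Phf8oe values. The fall was larger than the log2 difference between replicates, 0.66 in ctrl and 0.39 in Phf8oe. With 2 libraries per group that spread is poorly measured. At this depth the exact size of the fall was not well fixed: the log2 fold change ranged from -2.56 to -1.90 with 1 library left out. Arc did not pass without ctrl replicate 1 (limma adjusted p = 0.0912) or without ctrl replicate 2 (0.0837).

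Ier2, a small nuclear protein induced by many growth factors, had normalized counts of 2499 and 2410 in ctrl and 1039 and 1565 in Phf8oe. The ctrl libraries were nearly equal, and both Phf8oe libraries lay below them. Ier2 fell 1.92-fold (log2 fold change -0.94, SE 0.19, limma adjusted p = 0.0351), the smallest change among the 5 genes that fell. Without Phf8oe replicate 1 its log2 fold change was -0.65 and without Phf8oe replicate 2 it was -1.24. The call was lost without ctrl replicate 1 (limma adjusted p = 0.307) and without ctrl replicate 2 (0.156).

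**Figure D3:**
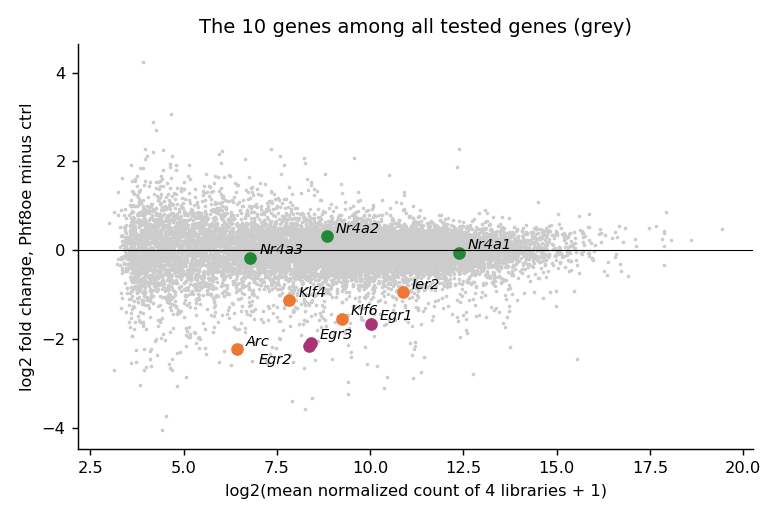
Log2 fold change (vertical axis) against log2 of the mean normalized count of the 4 libraries plus 1 (horizontal axis) for all 14368 tested genes in grey, with Egr genes in purple, Nr4a genes in green and the other 4 in orange. The Egr genes, Arc and Klf6 lie at or below -1.54, Klf4 and Ier2 at -1.12 and -0.94, and the Nr4a genes near 0.

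The Phf8oe libraries did not show the same depth of change. All 10 genes were higher in Phf8oe replicate 2 than in replicate 1, where 50.4% of all tested genes were. The median log2 difference between these libraries was 0.53 for the 10 genes and 0.00 for all tested genes. Egr2 stood at 14.5% of its ctrl mean in replicate 1 and at 34.0% in replicate 2, and Klf4 at 31.8% and 65.5%. Klf6, by contrast, was close in both, at 30.3% and 37.9%. Phf8 itself was measured at 2026 and 2205 in ctrl and at 5650 and 10796 in Phf8oe, so the Phf8oe library with more Phf8 had the smaller falls. It was higher in both Phf8oe libraries but did not pass the test (log2 fold change 1.89, SE 0.35, limma adjusted p = 0.0631). With 2 libraries, no relation between Phf8 and these genes can be tested. In ctrl, 6 of the 10 genes were higher in replicate 2, with a median log2 difference of 0.19.

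Ratios taken within a library do not depend on how libraries were scaled. Relative to Nr4a1, Egr1 stood at 27.4% and 29.8% in ctrl and at 7.24% and 12.2% in Phf8oe. Klf6 was at 21.2% and 12.9% of the Nr4a1 value in ctrl and at 5.41% and 6.41% in Phf8oe. The ctrl and Phf8oe ratios did not overlap for Egr1, Egr2, Egr3, Arc, Klf6, Ier2 or Klf4, with Phf8oe lower. They did not overlap for Nr4a2 either, with Phf8oe higher (8.90% and 6.47% in ctrl, 9.52% and 10.1% in Phf8oe). The share of all tested genes with such a separation was not computed. Nr4a1 itself differed little between the groups (log2 fold change -0.06), so these ratios restate the separations given above. Nr4a3 stood at 2.2% and 2.07% in ctrl and at 1.71% and 2.26% in Phf8oe, which overlap. With 2 libraries per group an exact two-sided permutation test of such a ratio cannot go below p = 0.333. These percentages compare a gene with itself across libraries, since the values are not divided by gene length.

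**Figure D4:**
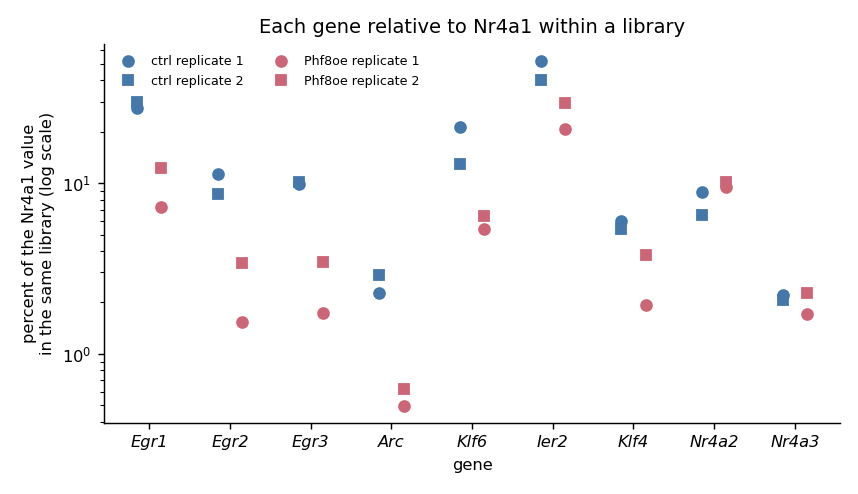
Value of each gene as a percent of the Nr4a1 value in the same library (vertical axis, log scale), with ctrl in blue, Phf8oe in red, circles for replicate 1 and squares for replicate 2. The groups are apart for the 7 genes from Egr1 to Klf4, with the Phf8oe libraries lower, and overlap for Nr4a3; for Nr4a2 the Phf8oe libraries are the higher ones.

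Other genes of the early response were read from lists. Of the 7 AP-1 genes, 6 fell and none rose, among them Junb (4202 and 3693 against 1245 and 1876), Fosl2 (686 and 568 against 170 and 278) and Jun (23351 and 19248 against 8251 and 11681), with limma adjusted p-values of 0.0168, 0.015 and 0.0211. None of the 7 passed without ctrl replicate 1 or without ctrl replicate 2, where the adjusted p-values were 0.209 and 0.0876 for Junb, 0.220 and 0.0837 for Fosl2 and 0.221 and 0.0747 for Jun. With the replicate block 2 of the 7 fell, Junb and Fosl2 (limma adjusted p = 0.0433 and 0.0499), and Jun did not pass (0.0635). Jund, picked after its value was seen, stood at a log2 fold change of 0.06. Of 30 further immediate early genes tested, 6 fell and none rose, with a median log2 fold change of -0.64 (0 fell without ctrl replicate 1, 2 without ctrl replicate 2, and 9 and 15 without Phf8oe replicates 1 and 2). Ier5l, a relative of Ier2, fell 2.40-fold, Gadd45g, a growth arrest gene, 2.19-fold and Sik1, a kinase that restrains CREB coactivators, 2.03-fold. Some genes of that list stood near no change, such as Myc at a log2 fold change of 0.08 and Homer1 at -0.02, both picked after their values were seen.

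Of 25 transcripts for the factors and kinases that act upstream of these genes, 2 passed the test, or 8.0%, beside 7.64% of all tested genes. Both fell, where 4.65% of all tested genes fell. Both Phf8oe libraries lay below both ctrl libraries for 3 of 5 genes of the SRF list, 3 of 7 of the CREB list and 7 of 13 of the ERK list. They lay above both for 0, 0 and 2. Over all tested genes these shares were 28.7% below and 28.9% above. None of 5 genes for SRF and its cofactors passed in limma, with Srf at 2621 and 2475 in ctrl and 2370 and 2430 in Phf8oe and the SRF coactivator Mkl1 at a log2 fold change of -0.12. Elk3 (660 and 836 against 535 and 520) and Elk4 (2668 and 2756 against 2271 and 2100) were lower in both Phf8oe libraries. They missed the threshold (log2 fold change -0.49 and -0.31, limma adjusted p = 0.0806 and 0.0931), and Elk1 stood at 0.01. These Elk genes were named after their values were seen. None of 7 genes for CREB, its relatives and coactivators passed, with Atf1 at -0.01 and Crtc2 at -0.12. Creb1 itself was lower in both Phf8oe libraries (615 and 659 against 419 and 469) and missed the threshold, as did the coactivator gene Crebbp at -0.36 (limma adjusted p = 0.0587 and 0.0717), both named after their values were seen. The sign for Atf1 turned under upper quartile scaling (0.04). Of 13 genes of the ERK cascade and the kinases below it, 2 fell, Rps6ka3, which encodes a kinase that ERK activates, 1.72-fold and Braf, a kinase at the top of the cascade, 1.5-fold (limma adjusted p = 0.00929 and 0.0471). Both calls were lost without either ctrl library. The call of Braf was also lost without Phf8oe replicate 1. The same held with upper quartile scaling (limma adjusted p = 0.0577), without robust moderation (0.0599) and with the replicate block (0.114). Among 6 genes for proteins that bind AU-rich elements, which shorten or lengthen the life of early messages, none passed, with Khsrp at 0.07 and Hnrnpd at -0.17. Both Phf8oe libraries lay below both ctrl libraries for 2 of the 6 and above them for 1. Zfp36, picked after its values were seen, went from 390 and 369 to 279 and 224 and missed the threshold (log2 fold change -0.60, limma adjusted p = 0.0742). Of the 3 retinoid X receptor genes, whose products pair with Nr4a1 and Nr4a2, Rxrg fell 3.02-fold (455 and 482 against 171 and 139, limma adjusted p = 0.00318, but 0.0986 without ctrl replicate 1 and 0.0524 without ctrl replicate 2). Transcript levels do not measure the phosphorylation through which most of these proteins act.

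**Figure D5:**
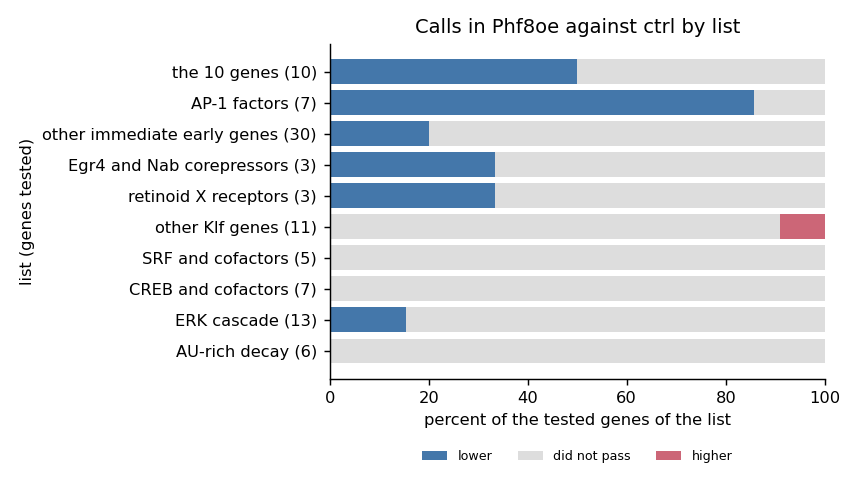
Share of the tested genes of each list (horizontal axis, percent) that were lower (blue), higher (red) or did not pass (grey) in Phf8oe, with the number tested after each name. Among the lists drawn, which leave out the cell type markers, the AP-1 factors hold 6 of 7 in blue and the 10 genes 5 of 10, and the lists for SRF, CREB and AU-rich decay are grey throughout.

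The genes with the profile nearest to that of the 10 genes were found by the Euclidean distance between log2 values centred over the 4 libraries, among 11329 genes. They were Anxa2, which encodes an annexin, the kinase gene Dclk1, Pfkfb3, which encodes a regulator of glycolysis, Rasgef1c, and the AP-1 gene Fosb. Anxa2, the nearest, had 9719 and 10213 in ctrl and 3372 and 5382 in Phf8oe, at a distance of 0.08. The distance rests on 4 libraries. Measured the same way, Klf4 (0.27) and Ier2 (0.31) lay nearest to the median profile of the 10 genes and Nr4a2 (1.60) farthest.

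Across all genes 668 fell and 430 rose, and with upper quartile scaling the split was 598 to 614 while the same number of the 10 genes, 5, fell. Deposited totals ran from 39945215 to 41149255 per library, for about 28400000 to 47800000 estimated reads, the fewest in Phf8oe replicate 2. All 12 oligodendrocyte lineage markers were measured, with Sox10 between 61514 and 70474. Mbp and 3 other genes of mature cells rose, and the progenitor gene Pdgfra fell 1.81-fold. Of 9 neuronal markers tested 1 fell, Nefm 3.25-fold, and their summed values were 23096 to 28854 in ctrl and 15904 to 16535 in Phf8oe. The largest differences in value were in Nefm, Tubb3 (7458 and 4778 against 1893 and 3353) and Nefl (4843 and 2704 against 573 and 1056). Map2 overlapped (6951 and 8226 against 8319 and 7550). Both Phf8oe libraries lay below both ctrl libraries for 6 of the 9 and above for 0, against 28.7% and 28.9% of all tested genes. Of 9 astrocyte markers, Gfap fell and Aldh1l1 and Slc1a3 rose, with summed values of 139907 to 151867 in ctrl and 91542 to 92968 in Phf8oe. Gfap (79141 and 80736 against 10834 and 19613) carried that fall, and the other 8 summed to 60766 and 71131 in ctrl and to 80708 and 73355 in Phf8oe. Col1a1, the 1 of 8 fibroblast markers analysed here, fell from 454 and 437 to 121 and 164. Of 7 Schwann cell markers Tfap2a fell, the summed values being 5918 to 7600 in ctrl and 6126 to 7575 in Phf8oe. No microglial marker (3 of 8 analysed here, summing to 197 to 307) or endothelial marker (2 of 6 analysed here, 310 to 535) passed in limma. Calls of the markers varied with the fit. With the replicate block 1 lineage marker rose and 1 fell, 1 astrocyte marker fell and 0 rose, and 0 neuronal markers passed. Col1a1 and 1 Schwann cell marker still fell. The part of these marker shifts in the falls of the 10 genes was not tested. In such bulk samples fewer cells of a type and less RNA per cell cannot be told apart.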

How the data were processed

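Gene expression was measured by paired reads of 150 bases in 4 libraries. The submitters' processing notes list STAR 2.5.2b, Trimmomatic 0.36, bcl2fastq 2.20 and DESeq2, together with Rnor_6.0 and rn6. How reads were counted, whether strand was used and what filter set the 14410 listed genes is not given here. Without strand, reads from a pair of overlapping genes cannot be told apart. On GRCr8, Nr4a3, Arc and Klf4 each overlap an annotated gene whose symbol was not among the tested genes, and the other members overlap none. Symbols can differ between assemblies, and overlaps in the annotation used for counting were not examined. The deposited signal is a gene count scaled per library and rounded, although the labels call it raw: all 85 whole numbers that such scaling skips between 10 and 299 were absent in Phf8oe replicate 2. From that spacing 1 read was worth 0.8445 (ctrl) and 0.9548 (Phf8oe) for replicate 1, and 1.0176 (ctrl) and 1.4159 (Phf8oe) for replicate 2. Intervals on reads cover counting error only.

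Log2(value + 1) was modelled in limma 3.58.1 (R 4.3.3) with a variance trend, robust moderation and the group as the only term. Of the listed genes 14368 had 10 or more in 2 or more libraries and were tested, including all 10 genes. Residual degrees of freedom were 2, and prior ones 6.99 at the median. All tests were two-sided, with a Benjamini-Hochberg threshold of 0.05, and the procedure was tested on simulated data. The 10 genes and the lists were chosen with earlier results of these data known, and list counts are descriptions. Named beside the 10 genes are Phf8, up to 3 called genes of each list by smallest p (the 2 of highest mean if none was called), the 5 nearest profiles, and genes stated as picked later. Cell type markers were named after their values were seen. Alternatives covered pseudocount, filter, scaling, variance moderation, limma-voom, a replicate block and leaving out each library. Figures were drawn in matplotlib 3.10.9 under Python 3.11.15, with pandas 2.3.3 and numpy 2.4.6.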

Additional observations from a re-analysis of the deposited data

How the results depend on the processing

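Egr1, Egr2, Egr3, Arc, Ier2, Klf4 and Klf6 were lower under every alternative run, but which of them passed varied. Counts of the 10 genes that fell were 5 to 7 under each alternative with all 4 libraries, except with no variance trend, where limma called 0 of the 10 genes and 0 of all genes (0 lower, 0 higher; 3133 genes had an unadjusted p under 0.05). With 1 library left out, between 0 and 7 of the 10 genes fell, their median log2 fold change ranged from -1.67 to -0.95, and calls over all genes ran from 14 to 2103 (13 to 1198 lower, 1 to 905 higher). Such a fit measures the spread in the group that keeps both libraries and assumes that the lone library varies alike. Without robust moderation 256 genes were higher. The replicate numbers pair nothing by the labels, and same-numbered deviations correlated at -0.126 across genes. With the replicate block 373 genes were called (308 lower, 65 higher), and 5 of the 10 genes, with Egr1 gained (limma adjusted p = 0.00996) and Ier2 lost (0.0564). With the numbers crossed, an alternative chosen after seeing the data, 2354 were called (1298 lower, 1056 higher). Signs turned for Atf1 with upper quartile scaling (0.0374) and, with 1 library left out, for Atf1 (-0.20 to 0.19), Nr4a1 (-0.21 to 0.10) and Nr4a3 (-0.41 to 0.0652). The causes of these shifts were not tested. Low read numbers limit the values of Egr4, and of Arc in Phf8oe.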
